A study of Mus musculus with 6 samples.

Results

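The genes examined here encode the main conjugating enzymes of drug and steroid metabolism in mouse liver: the UDP-glucuronosyltransferases (UGT), the cytosolic sulfotransferases (SULT), the glutathione S-transferases (GST) and the microsomal glutathione transferases (MGST). They were chosen by symbol, as the genes that the array's annotation names Ugt1a, Ugt2a, Ugt2b, Ugt3a, Sult, Gsta, Gstm, Gstp, Gstt, Gstk, Gsto or Mgst with their numbers. This rule by symbol used no measured value, though it was chosen with earlier results of these data known. It gave 60 of the 19057 named genes on the array, with 20 UGT, 16 SULT, 21 GST and 3 MGST genes read by 98 probes, and of several probes for a gene the one that was brightest on average across the 6 arrays was used. Livers came from C57Bl/6N mice aged 8 weeks that had received a single intraperitoneal injection. The 3 tunicamycin samples came from mice given 2.5 mg/kg of tunicamycin, dissolved in dimethyl sulfoxide and diluted in phosphate-buffered saline with glucose, and the 3 vehicle samples from mice given an equal volume of vehicle. Liver was taken 12 hours later, and total RNA was copied into biotin-labelled RNA and read on an Illumina bead array. The sources used here do not give sex, chip or whether an array is 1 animal or a pool, so a p-value reflects the spread among these 6 arrays and nothing wider.

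Conjugation makes a fat-soluble molecule easier to excrete by attaching a polar group to it. UGT enzymes sit in the membrane of the endoplasmic reticulum (ER), with their active site in its lumen, and transfer glucuronic acid from UDP-glucuronic acid to bilirubin, steroids, bile acids and drugs. SULT enzymes work in the cytosol and transfer sulfate from the donor PAPS to phenols, steroids and bile acids. GST enzymes couple the tripeptide glutathione to electrophiles such as lipid aldehydes and drug epoxides, and the MGST proteins do so in membranes. Tunicamycin stops the cell from making the sugar chain that is attached to asparagines of new proteins, and misfolded proteins then collect in the ER and start the unfolded protein response. The comparison asks how the transcripts of these enzymes differ after that challenge.

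Values below are normalized log2 intensities, and a fold change is the difference of the group means on this scale. The scale carries an added offset of 16 intensity units, so the change of dim genes is understated, and levels are set against each other only within a probe. A gene was called when limma's moderated test gave a Benjamini-Hochberg adjusted p under 0.05 over all 11674 items tested. Between 15503 and 16603 of the 45281 probes were detected on an array, and the arrays correlated at 0.9892 to 0.9947 within a group and at 0.8888 to 0.9033 between groups. Over all items the median change was -0.008 on the log2 scale. Of hepatocyte markers, 9 of 12 on the array could be tested, with 0 called higher and 5 lower and a summed intensity of 135100 to 142900 in vehicle and 110700 to 113300 in tunicamycin samples. The probes for Fgb and Tat were detected on no array, and that for Alb on too few to be tested. Markers of Kupffer cells, the macrophages of liver, were called lower for 9 of 11, with a summed intensity of 3148 to 4502 in vehicle and 748.6 to 2192 in tunicamycin samples. Of endothelial markers 4 of 8 were called lower, of stellate and fibroblast markers 4 of 7, and of cholangiocyte markers 0 of 2, with Krt19, Epcam and Cftr detected on no array. Lymphocyte markers were called lower for 2 of 3, erythroid markers for 3 of 4 and markers of intestine or pancreas for 2 of 2, and 1 of 3 neutrophil markers was called higher. These counts stand beside 31.4% of all items called lower and 31% called higher. In whole tissue, fewer cells of a type and less RNA per cell cannot be told apart, and the part of any cell type in the results below was not tested.

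Of the 60 genes, 40 passed the filter on detection and 20 did not. Of the 40 tested, 22 were called lower and 10 higher after tunicamycin, and 8 were not called. Without vehicle replicate 2 the count called higher was 6, since Gstm1, Gstm4, Ugt1a6a and Ugt1a6b were then not called. The count of 32 makes 80% called, against a background of 62.5% of all items. The share called lower was 55%, against 31.4% of all items, and the share called higher was 25%, against 31%. Falls of at least 2-fold were called in 14 of the 40, where 11.6% of all items showed one. Rises of at least 2-fold were called in 2 of the 40, Gsta1 and Gstm2, where 11% of all items showed one. The median log2 fold change of the tested genes was -0.54, and it was -0.48, -0.58 and -0.66 when each tunicamycin array alone was set against the vehicle mean. The families did not share 1 direction. Among tested genes the SULT, UGT2, UGT3, GSTT, GSTK and MGST families held no call upward, and the rises came from UGT1, GSTM, GSTA, GSTP and GSTO. The rule by symbol did not use these values, but it was chosen with earlier results of these data known. The families are small, and no test of a family as a whole was made. Counts by family below can be read against the 31.4% of all items called lower and the 31% called higher.

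**Figure D1:**
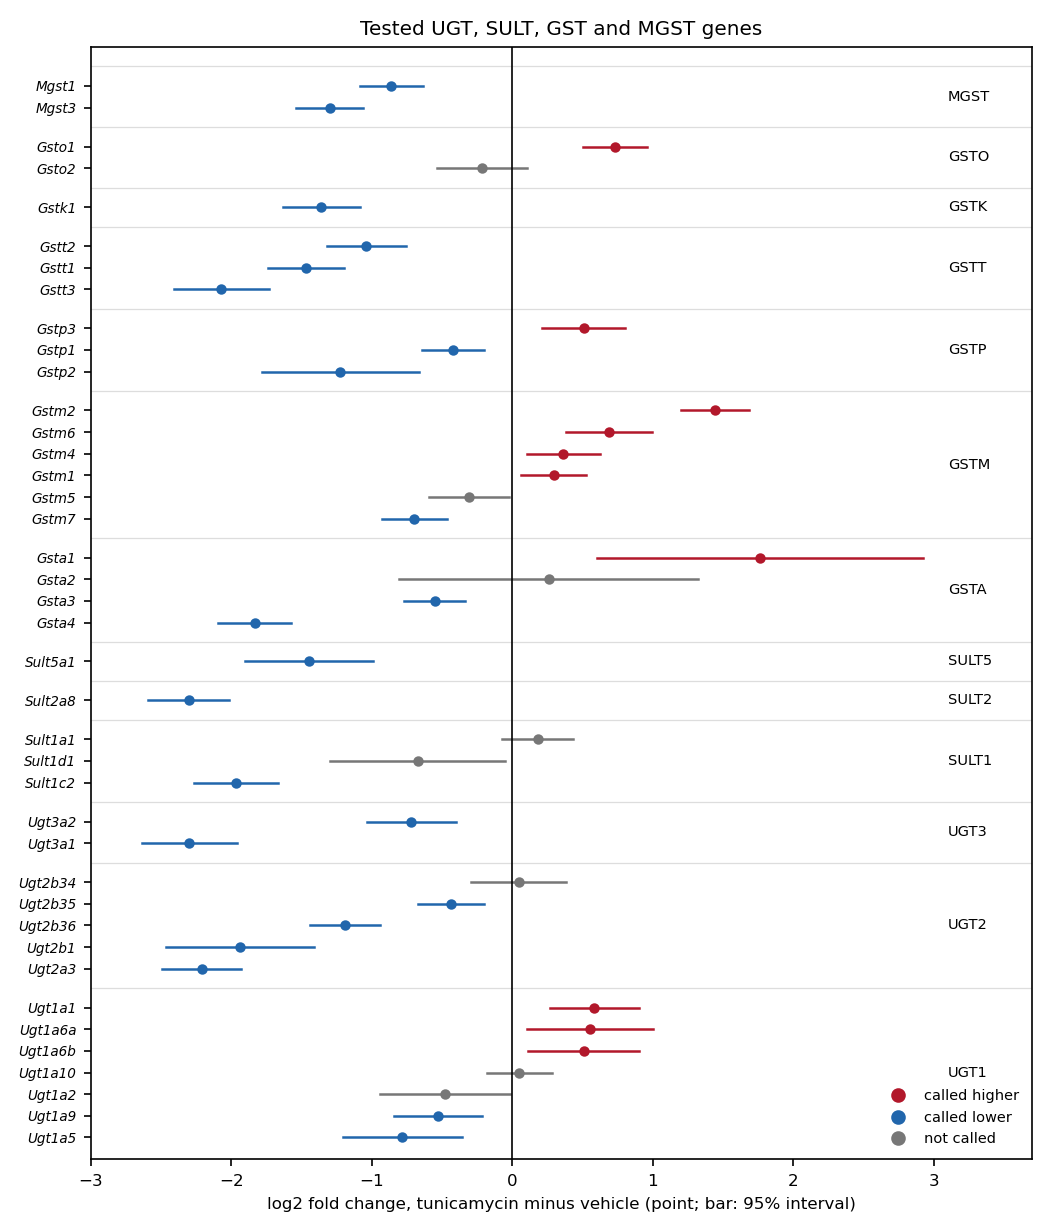
Log2 fold change of each tested gene (x axis, tunicamycin minus vehicle, 3 arrays per group), grouped by family, with its 95% interval before adjustment as a bar and the call by colour. The SULT2, UGT2, UGT3, GSTT, GSTK and MGST points lie to the left of 0 except Ugt2b34, which was not called, and the longest bars are those of Gsta1 and Gsta2.

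Among the glucuronosyltransferases, 14 of 20 genes could be tested, and 8 were called lower, 3 higher and 3 not. The share called lower was 57.1% and the share called higher 21.4%, beside 31.4% and 31% of all items. The decrease was strongest outside the UGT1 family. Ugt3a1, whose human counterpart transfers N-acetylglucosamine to bile acids, had log2 intensities of 11.08, 10.94 and 11.15 in vehicle replicates 1 to 3 and of 8.76, 9.06 and 8.46 in tunicamycin replicates 1 to 3. Every tunicamycin array lay below every vehicle array by a wide margin. The fall was 4.92-fold (log2 fold change -2.30 ± 0.15, SE, limma adjusted p = 6.219e-07). Its neighbour and only relative on the array, Ugt3a2, fell 1.65-fold (log2 fold change -0.72 ± 0.14, limma adjusted p = 0.001437), so both UGT3 genes moved the same way by different amounts.

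In the UGT2 family, whose members glucuronidate steroids and bile acids, 5 of 10 genes could be tested and 4 were called lower. Ugt2a3 stood at 9.0, 8.92 and 8.76 in the vehicle arrays and at 6.60, 6.54 and 6.90 in the tunicamycin arrays. The groups were far apart and tight within themselves. Its fall was 4.63-fold (log2 fold change -2.21 ± 0.13, limma adjusted p = 2.543e-07). Ugt2b1, which in rat acts on testosterone and phenols, read 8.50, 8.94 and 9.03 against 6.30, 7.16 and 7.19. Its replicate 1 was the lowest array in both groups, and the groups still did not overlap. The fall was 3.83-fold (log2 fold change -1.94 ± 0.24, limma adjusted p = 4.899e-05). Ugt2b36 read 13.12, 13.07 and 13.06 against 11.99, 11.97 and 11.71 and fell 2.29-fold (log2 fold change -1.19 ± 0.11, limma adjusted p = 7.442e-06). Both of its detected probes were called lower, at log2 fold changes of -1.52 and -1.19. Ugt2b35 fell 1.35-fold, the smallest called change of the family, and was not called when arrays were scaled to 1 median each (log2 fold change -0.28, limma adjusted p = 0.1709, range over all alternatives 0.001216 to 0.1709). Ugt2b34 showed a log2 fold change of 0.04 ± 0.15 (limma adjusted p = 0.8162, 95% interval -0.29 to 0.38), with overlapping groups. Ugt2b5, Ugt2b37, Ugt2b38, Ugt2a1 and Ugt2a2 were detected on no array.

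The UGT1 family differed from this pattern. Its proteins arise from 1 locus, in which each gene joins an exon of its own to exons that all of them share, and the UGT1A proteins include the bilirubin-conjugating enzyme. Of 8 genes 7 were tested, with 3 called higher, 2 lower and 2 not called. The median log2 fold change was 0.05, which is the value of Ugt1a10. Ugt1a1, the bilirubin enzyme, read 9.49, 9.02 and 9.05 in vehicle arrays and 9.66, 9.86 and 9.80 in tunicamycin arrays. Each tunicamycin value exceeded each vehicle value, and vehicle replicate 1 came nearest to them. The rise was 1.50-fold (log2 fold change 0.58 ± 0.14, limma adjusted p = 0.00461). Ugt1a5 read 8.42, 7.82 and 7.57 against 7.28, 7.11 and 7.07 and fell 1.72-fold (log2 fold change -0.78 ± 0.19, limma adjusted p = 0.004788). Its second detected probe was not called, at a log2 fold change of -0.05. Ugt1a9, which conjugates bulky phenols, read 7.23, 6.88 and 6.69 against 6.46, 6.33 and 6.41 and fell 1.45-fold (log2 fold change -0.53 ± 0.14, limma adjusted p = 0.007434). In both genes the groups were separate, and most of the spread lay among the vehicle arrays. Scaled to 1 median per array, Ugt1a9 was not called (log2 fold change -0.46, limma adjusted p = 0.05092, the highest of a range from 0.002968).

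Ugt1a6a and Ugt1a6b, a near-identical pair that conjugates small planar phenols, were called higher with overlapping groups. Ugt1a6a read 9.71, 9.27 and 8.89 in vehicle and 9.78, 10.12 and 9.63 in tunicamycin arrays, a rise of 1.47-fold (log2 fold change 0.55 ± 0.20, limma adjusted p = 0.03436). Ugt1a6b read 10.04, 9.62 and 9.33 against 10.04, 10.38 and 10.09, a rise of 1.42-fold (limma adjusted p = 0.02931). Vehicle replicate 1 reached the tunicamycin range for both genes. Whether the probe of either gene also binds the transcript of the other was not tested, so these calls may not be separate readings. The Ugt1a6a call was lost under 7 of 15 alternative settings and the Ugt1a6b call under 5, and the 3 detected probes of Ugt1a6a ranged in log2 fold change from -0.23 to 0.82. Ugt1a10 showed a log2 fold change of 0.05 ± 0.10 (limma adjusted p = 0.7056, 95% interval -0.18 to 0.28), and none of its 3 detected probes was called. The raw signals of those probes in vehicle replicate 1 were 12818.9, 13140.7 and 6741.1. Its 3 other probes read 88.6, 90.9 and 90.6 on that array, near background. Whether the bright probes lie in the shared exons was not tested, so their values may not belong to Ugt1a10 alone. Ugt1a2 was not called either, at -0.48 ± 0.21 (limma adjusted p = 0.06593), but was called lower without vehicle replicate 3, at -0.72 (limma adjusted p = 0.004148, range over all alternatives 0.004148 to 0.2529). The position of the probes within the transcripts was not used here, and a probe in the shared exons would read every transcript of the locus.

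Some neighbouring UGT1 genes were called in opposite directions. In order along mouse chromosome 1 the locus holds Ugt1a10, Ugt1a9, Ugt1a7c, Ugt1a6b, Ugt1a6a, Ugt1a5, Ugt1a2 and Ugt1a1. Ugt1a5, called lower, thus stands beside Ugt1a6a, called higher. Both calls are limited. Ugt1a6a had overlapping groups and lost its call under some alternative settings, and the second detected probe of Ugt1a5 was not called (log2 fold change -0.05). The starts of Ugt1a1 (called higher), Ugt1a9 (called lower) and Ugt3a1 (the largest UGT fall) are shown here to set genes of opposite direction side by side. Each sequence is the 300 bases from 250 before to 50 after the annotated start in RefSeq, build GRCm38.p6, on the gene's strand from 5′ to 3′. Ugt1a1 is at chr1:88211709-88212008 and Ugt1a9 at chr1:88070529-88070828, both on the plus strand, and Ugt3a1 at chr15:9279579-9279878 on the plus strand. Capitals mark GTTAAT or its reverse complement ATTAAC, the core letters bound by the liver factor HNF1.
Ugt1a1: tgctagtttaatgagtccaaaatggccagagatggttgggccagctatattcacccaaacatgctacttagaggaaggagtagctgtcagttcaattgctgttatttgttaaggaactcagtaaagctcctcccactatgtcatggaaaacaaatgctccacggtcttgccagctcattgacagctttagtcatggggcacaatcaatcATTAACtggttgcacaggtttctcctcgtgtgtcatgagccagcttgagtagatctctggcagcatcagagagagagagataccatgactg
Ugt1a9: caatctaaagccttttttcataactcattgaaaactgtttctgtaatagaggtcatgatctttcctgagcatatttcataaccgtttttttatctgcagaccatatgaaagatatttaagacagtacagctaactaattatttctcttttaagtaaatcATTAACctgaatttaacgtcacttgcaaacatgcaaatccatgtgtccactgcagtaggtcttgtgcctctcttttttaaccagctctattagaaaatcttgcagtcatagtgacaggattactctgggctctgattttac
Ugt3a1: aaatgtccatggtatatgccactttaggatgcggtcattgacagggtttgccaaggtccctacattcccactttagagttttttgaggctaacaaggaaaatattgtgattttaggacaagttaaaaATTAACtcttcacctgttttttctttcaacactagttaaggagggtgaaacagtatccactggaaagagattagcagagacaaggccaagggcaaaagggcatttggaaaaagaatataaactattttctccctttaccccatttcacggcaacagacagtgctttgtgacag
All 3 windows hold the ATTAAC form, at positions -41 to -36 from the start in Ugt1a1, -91 to -86 in Ugt1a9 and -123 to -118 in Ugt3a1. The window of Ugt1a5, which fell further than Ugt1a9 and is not printed, holds neither form. Of 12 UGT genes with a window only 6 hold either, so the printed windows do not stand for the family. The Ugt1a1 and Ugt1a9 windows were identical at 179 of 340 aligned columns (52.6%).

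**Figure D2:**
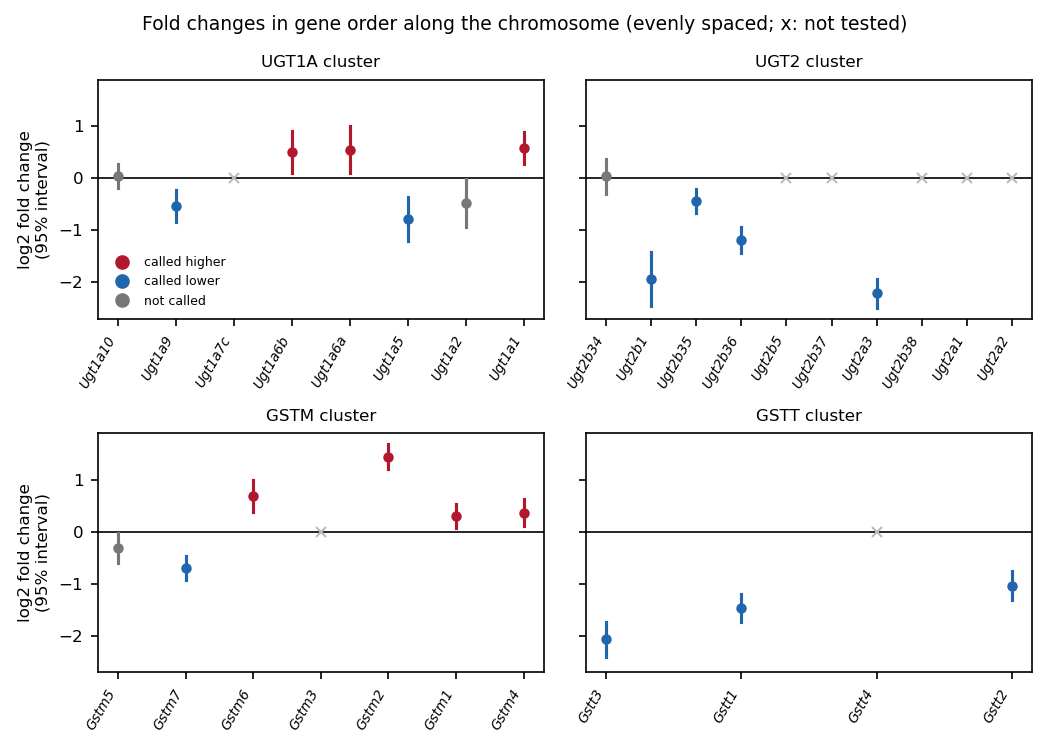
Log2 fold change with its 95% interval (y axis) for genes of 4 clusters in their order along the chromosome (x axis, evenly spaced), with crosses at 0 for genes that were not tested. Called genes of the UGT2 and GSTT clusters all lie below 0, while the UGT1A and GSTM clusters hold calls on both sides of it.

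Most sulfotransferase probes were below detection. Of 16 SULT genes 11 were detected on no array, among them Sult1e1, the oestrogen sulfotransferase, and the hydroxysteroid enzymes Sult2a1 and Sult2a2, as well as Sult3a2, Sult4a1 and Sult6b1. An undetected probe does not show that the transcript is absent, here or in the other families. Ugt3a1, Gstt3 and Ugt2a3 each had a probe detected on every array and another detected on none. Of the 5 tested genes 3 were called lower (60%) and 0 higher, beside 31.4% and 31% of all items. Their median log2 fold change was -1.45. Sult2a8, a bile acid sulfotransferase of mouse liver, read 10.67, 10.34 and 10.30 in vehicle arrays and 8.09, 8.27 and 8.03 in tunicamycin arrays. The 2 groups lay about as far apart as those of Ugt3a1. The fall came to 4.94-fold (log2 fold change -2.30 ± 0.13, limma adjusted p = 2.277e-07) and was the largest of the 40 tested genes, though it exceeded that of Ugt3a1 by less than its error. Sult1c2, of the phenol sulfotransferase family, read 7.10, 6.95 and 7.07 against 5.33, 5.03 and 4.86 and fell 3.91-fold (log2 fold change -1.97 ± 0.13, limma adjusted p = 7.831e-07). Its tunicamycin values were close to the floor set by the offset, and without background correction its log2 fold change was -0.93. Sult5a1 read 7.02, 6.52 and 6.14 against 5.02, 5.34 and 4.98 and fell 2.72-fold, or by 0.64 on the log2 scale without background correction.

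The other tested SULT1 genes, Sult1a1 and Sult1d1, were not called. Sult1a1, the main phenol sulfotransferase of liver, read 12.21, 12.19 and 12.14 in vehicle and 12.33, 12.23 and 12.53 in tunicamycin arrays. Its log2 fold change was 0.18 ± 0.11 (limma adjusted p = 0.1906, 95% interval -0.07 to 0.43), although each tunicamycin value was above each vehicle value. Sult1d1, which in mouse sulfonates catecholamines, read 9.65, 9.35 and 8.35 against 8.66, 8.38 and 8.29. Vehicle replicate 3 lay within the tunicamycin range, and the other vehicle arrays lay well above it. The log2 fold change was -0.67 ± 0.28 (limma adjusted p = 0.05722), and without vehicle replicate 3 it was -1.05 and called lower (limma adjusted p = 0.0003081, range over all alternatives 0.0003081 to 0.2605).

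**Figure D3:**
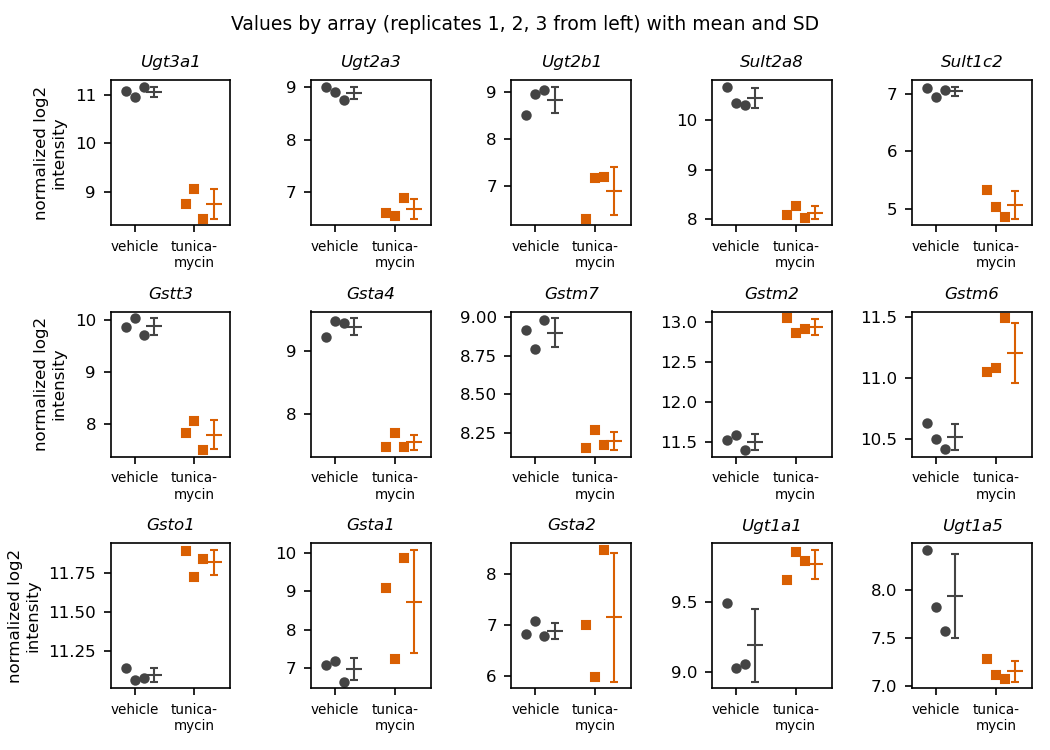
Normalized log2 intensity (y axis, a separate range for each gene) of 15 genes in the 3 vehicle arrays (circles) and 3 tunicamycin arrays (squares), replicates 1 to 3 from left to right, with the mean and SD of each group. The groups are well apart for Ugt3a1, Sult2a8 and Gstm2, and the tunicamycin arrays of Gsta1 and Gsta2 are spread over more than 2 log2 units.

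Of 21 genes of the cytosolic and mitochondrial glutathione transferases 19 were tested, with 9 called lower, 7 higher and 3 not called. The share called higher, 36.8%, was near the 31% of all items, and the share called lower was 47.4%, beside 31.4%. The alpha, mu and pi classes each held calls in both directions. The theta class, which acts on small halogenated molecules, was lower throughout, with 3 of 3 tested genes called. Gstt3 read 9.87, 10.03 and 9.72 in vehicle arrays and 7.83, 8.07 and 7.51 in tunicamycin arrays. The groups were separate by more than their own spread. The fall was 4.20-fold (log2 fold change -2.07 ± 0.15, limma adjusted p = 1.341e-06). Gstt1 fell 2.76-fold and Gstt2 2.06-fold, and Gstt4 was detected on no array. Gstk1, the mitochondrial and peroxisomal kappa enzyme, read 11.95, 11.92 and 11.98 against 10.68, 10.74 and 10.35 and fell 2.57-fold (log2 fold change -1.36 ± 0.12, limma adjusted p = 6.059e-06). Its second detected probe was also called lower, at -1.56.

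In the mu class most calls were upward. Of 7 GSTM genes 6 were tested, and 4 were called higher, 1 lower and 1 not called. Gstm2 read 11.52, 11.59 and 11.40 in vehicle arrays and 13.05, 12.87 and 12.91 in tunicamycin arrays. Its 3 tunicamycin arrays agreed closely and lay far above the vehicle arrays. The rise was 2.72-fold (log2 fold change 1.44 ± 0.11, limma adjusted p = 1.534e-06), and its 3 detected probes gave log2 fold changes between 1.41 and 1.45. Gstm6 read 10.63, 10.50 and 10.42 against 11.05, 11.08 and 11.49 and rose 1.61-fold (log2 fold change 0.69 ± 0.14, limma adjusted p = 0.001404), with its 3 detected probes between 0.67 and 0.69. Gstm4 rose 1.29-fold (limma adjusted p = 0.01964) and lost its call under 3 of 15 alternative settings. Gstm1 rose 1.23-fold (limma adjusted p = 0.03139), lost its call under 6, and had a second detected probe at a log2 fold change of -0.19 that was not called.

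Gstm7 was the 1 mu gene called lower. It read 8.92, 8.80 and 8.98 in vehicle arrays and 8.16, 8.27 and 8.18 in tunicamycin arrays, and fell 1.62-fold (log2 fold change -0.70 ± 0.10, limma adjusted p = 0.0002055). Gstm5, its neighbour at the end of the cluster, was not called, at -0.31 ± 0.13 (limma adjusted p = 0.05975). It was called lower with an offset of 50 and without vehicle replicate 1, where it stood at -0.44 (limma adjusted p = 0.006894, range over all alternatives 0.006894 to 0.3983). Gstm3 was detected on 1 array, of a tunicamycin sample, and was not tested. Along chromosome 3 the order is Gstm5, Gstm7, Gstm6, Gstm3, Gstm2, Gstm1 and Gstm4, so the 4 genes called higher lie together on 1 side of Gstm7, with the untested Gstm3 among them. The starts of Gstm2 and Gstm7 are shown because these genes moved furthest in opposite directions within the cluster, with the same window and source as above. RefSeq gives Gstm7 a pair of start windows, of which 1 is printed. Gstm2 is at chr3:107986371-107986670 and the printed window of Gstm7 at chr3:107931565-107931864, both on the minus strand and printed 5′ to 3′ along the gene. Capitals mark TGACNNNGC or its reverse complement, the core of the antioxidant response element through which the factor NRF2 acts.
Gstm2: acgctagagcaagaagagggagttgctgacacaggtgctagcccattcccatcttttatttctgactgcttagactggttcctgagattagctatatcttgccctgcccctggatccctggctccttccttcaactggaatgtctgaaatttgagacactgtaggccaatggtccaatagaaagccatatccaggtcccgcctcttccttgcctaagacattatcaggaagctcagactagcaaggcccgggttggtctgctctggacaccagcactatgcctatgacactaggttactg
Gstm7: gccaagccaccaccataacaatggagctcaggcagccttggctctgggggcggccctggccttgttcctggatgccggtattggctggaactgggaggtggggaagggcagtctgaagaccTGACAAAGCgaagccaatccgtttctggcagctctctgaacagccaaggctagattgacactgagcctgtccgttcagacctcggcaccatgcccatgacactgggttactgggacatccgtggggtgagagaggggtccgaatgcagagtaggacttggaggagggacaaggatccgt
The element's core stands in the printed Gstm7 window as TGACAAAGC, at positions -129 to -121 from that start. Its letters are not in the window of the other annotated Gstm7 start, at chr3:107931768-107932067, nor in the Gstm2 window. The aligned printed windows were identical at 50.7% of 341 columns. GST genes of 1 class are alike in sequence, and a probe can bind the transcript of a relative, so a value is uncertain for a single mu gene.

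The alpha class held the widest spread among the tunicamycin arrays of the 40 tested genes. Gsta4, which detoxifies the lipid aldehyde 4-hydroxynonenal, read 9.23, 9.48 and 9.45 in vehicle arrays and 7.48, 7.69 and 7.47 in tunicamycin arrays. The groups were well separated, and the fall was 3.57-fold (log2 fold change -1.83 ± 0.12, limma adjusted p = 5.179e-07). Gsta3, which conjugates the aflatoxin epoxide in mouse liver, read 13.83, 13.81 and 13.82 against 13.32, 13.27 and 13.22 and fell 1.47-fold (log2 fold change -0.55 ± 0.10, limma adjusted p = 0.0006361). Its other detected probe gave a larger fall, of 1.40 on the log2 scale.

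Gsta1 and Gsta2 are a similar pair of genes known in mouse as targets of NRF2. Gsta1 read 7.08, 7.19 and 6.64 in vehicle arrays and 9.10, 7.23 and 9.87 in tunicamycin arrays. Tunicamycin replicates 1 and 3 were far above the vehicle arrays, while replicate 2 was barely above the highest of them. The raw signals of the probe ran from 166.2 to 219.4 in vehicle samples and were 551.1, 227.2 and 1265.2 in tunicamycin replicates 1 to 3. The rise was 3.40-fold (log2 fold change 1.76 ± 0.52, limma adjusted p = 0.01333), with a 95% interval from 1.52-fold to 7.60-fold. The log2 fold change was 2.51 without tunicamycin replicate 2 and 1.19 without replicate 3, and over the 15 alternative settings its limma adjusted p ranged from 4.624e-05 to 0.1186. Another Gsta1 probe was called higher at a log2 fold change of 1.98, and the third was not, at 0.24.

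Gsta2 showed the same order of tunicamycin arrays without a call. Its raw signals were 180.5, 136.8 and 542.8 in tunicamycin replicates 1 to 3, close to 232.1, 150.4 and 553.7 for the third Gsta1 probe. Whether a probe of either gene also binds the other's transcript was not tested, so the shared order may not come from 2 separate readings. Gsta2 read 6.81, 7.07 and 6.78 in vehicle arrays and 6.99, 5.97 and 8.47 in tunicamycin arrays. Thus 1 tunicamycin array lay below, 1 among and 1 above the vehicle arrays. The log2 fold change was 0.26 ± 0.48 (limma adjusted p = 0.6646), and it was -0.40 without tunicamycin replicate 3. Of the 11674 items, 6 had a range above 2 log2 units among the tunicamycin arrays (0.0514%), and Gsta1 at 2.64 and Gsta2 at 2.50 were among these 6. The others were Cyp7a1, Vsig4, Wfdc3 and a probe without a gene name. Vsig4, a Kupffer cell marker, was also highest in tunicamycin replicate 3, at 9.34 against 6.73 and 7.06 in replicates 1 and 2. The summed Kupffer cell markers were 748.6, 868 and 2192 in tunicamycin replicates 1 to 3. Cholangiocyte sums (264.2, 186.3 and 274.9) and erythroid sums (6627, 7991 and 10400) were also highest in replicate 3, and those of the other cell types were not. The part of any cell type in the Gsta1 and Gsta2 values was not tested. The starts of both genes are shown because they share this order of arrays, with the same window and source as above, and Gsta1 is at chr9:78230419-78230718 on the plus strand and Gsta2 at chr9:78347096-78347395 on the minus strand, both printed 5′ to 3′ along the gene. Capitals would mark any of the 3 motifs searched, and there are none in either window.
Gsta1: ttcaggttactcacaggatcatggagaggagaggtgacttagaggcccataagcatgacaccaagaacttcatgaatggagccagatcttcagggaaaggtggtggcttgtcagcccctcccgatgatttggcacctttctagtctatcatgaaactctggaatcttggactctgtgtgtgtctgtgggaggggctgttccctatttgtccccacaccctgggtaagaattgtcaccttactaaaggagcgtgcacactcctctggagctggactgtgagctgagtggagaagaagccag
Gsta2: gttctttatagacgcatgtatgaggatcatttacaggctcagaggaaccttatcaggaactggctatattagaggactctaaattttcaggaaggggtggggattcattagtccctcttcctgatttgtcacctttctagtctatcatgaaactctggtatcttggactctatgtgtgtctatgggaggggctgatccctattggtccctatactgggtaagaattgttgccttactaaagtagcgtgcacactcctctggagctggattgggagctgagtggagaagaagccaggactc
The windows were identical at 238 of 316 aligned columns (75.3%).

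In the pi class, Gstp1, an abundant transferase of mouse liver, read 14.54, 14.63 and 14.61 in vehicle and 14.12, 14.22 and 14.19 in tunicamycin arrays and fell 1.34-fold (log2 fold change -0.42 ± 0.10, limma adjusted p = 0.003918). Its other detected probes were also called lower, with larger falls of 0.57 and 1.03 on the log2 scale. The values of the probe used are among the brightest on the arrays, and compression near the top of the scale was not tested. Gstp2 read 7.99, 7.20 and 6.89 against 6.09, 6.43 and 5.89 and fell 2.34-fold (limma adjusted p = 0.00169), and without background correction its log2 fold change was -0.73 in place of -1.22. Gstp3 read 8.53, 8.77 and 8.89 against 9.33, 9.33 and 9.05 and rose 1.42-fold (log2 fold change 0.51 ± 0.13, limma adjusted p = 0.006685). The 3 pi genes lie side by side on chromosome 19, and each had separate groups.

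The omega enzyme Gsto1, which reduces dehydroascorbate and removes glutathione from proteins, read 11.14, 11.06 and 11.07 in vehicle arrays and 11.89, 11.73 and 11.84 in tunicamycin arrays. The groups were separate and tight, and the rise was 1.66-fold (log2 fold change 0.73 ± 0.10, limma adjusted p = 0.0001279). Gsto2 was near background and not called. Both tested microsomal transferases fell. Mgst1, found in the ER and the outer mitochondrial membrane, read 14.10, 14.16 and 14.06 against 13.29, 13.27 and 13.18 and fell 1.82-fold (log2 fold change -0.86 ± 0.10, limma adjusted p = 3.422e-05). Mgst3, which also reduces lipid peroxides, read 8.87, 8.95 and 8.95 against 7.67, 7.70 and 7.49 and fell 2.46-fold (log2 fold change -1.30 ± 0.11, limma adjusted p = 2.652e-06). All detected probes of both genes were called lower, and Mgst2 was detected on 2 arrays and not tested.

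A wide spread within the vehicle group was more frequent among these genes than over all items. Of the 40 tested genes 10 had a range above 0.5 log2 units among the vehicle arrays, where 14.4% of all items had one. In 8 of these 10, vehicle replicate 1 was highest and replicate 3 lowest, namely Gstp2, Sult1d1, Sult5a1, Ugt1a2, Ugt1a5, Ugt1a6a, Ugt1a6b and Ugt1a9. The same order held for 31.9% of all items with such a range. The UGT1 genes among the 8 come from 1 locus, so they may not be separate readings. The summed Kupffer cell markers ran in this order too, at 4502, 3455 and 3148 in vehicle replicates 1 to 3. So did those of cholangiocytes (323.1, 279.3 and 220.1), lymphocytes (157.5, 98.32 and 91.09) and neutrophils (200.9, 195.8 and 98.26). The marker sums of the other cell types did not, and the part of any cell type in the spread was not tested. Of the 16 genes with several detected probes, all probes were called in 1 direction in 10, called and uncalled probes were mixed in 4, no probe was called in 2, and opposite calls occurred in 0.

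The 3 sequence motifs were searched on both strands of the start windows of the 36 tested genes that have one, 45 windows in all. The antioxidant response element core, TGACNNNGC, was in a window of 4 of the 36 genes (11.1%), against 14% of all 27025 genes with a window. These were Gsta3, Gstm5, Gstm7 and Mgst1, of which 3 were called lower, 1 was not called and 0 were called higher. The C/EBP-ATF response element core, TGATGNAA, was in 0 of the 36, against 4.51% of all genes. The HNF1 core, GTTAAT, was in 9 of the 36 (25%), against 8.24% of all genes. Of 12 UGT genes 6 held it, namely Ugt1a1, Ugt1a10, Ugt1a6a, Ugt1a9, Ugt2a3 and Ugt3a1, and so did Sult1a1, Sult1d1 and Gsta3. It was in 2 of 9 genes called higher, 4 of 19 called lower and 3 of 8 not called. The 3 motifs share no required overlap, and a match describes letters in the window and does not mark a bound site. A window without a match does not show that the gene lacks the element, which may lie outside it.

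Genes that supply the conjugating reactions were described from lists of known pathway members. For sulfate, 6 of 8 tested genes were called lower and 1 higher, beside 31.4% and 31% of all items. Their median log2 fold change was -0.75. Both enzymes that make PAPS were called, in opposite directions. Papss1 read 8.74, 8.57 and 8.60 in vehicle and 10.93, 10.80 and 10.95 in tunicamycin arrays, a rise of 4.78-fold (log2 fold change 2.26 ± 0.11, limma adjusted p = 7.484e-08). Papss2 read 11.87, 11.49 and 11.47 against 9.84, 9.95 and 9.81, a fall of 3.34-fold (log2 fold change -1.74 ± 0.13, limma adjusted p = 1.422e-06). The groups did not overlap for either gene. Suox, which oxidizes sulfite to sulfate, fell 2.57-fold, and the sulfate carrier Slc26a1 fell 2.52-fold. For the sugar donor only 3 of 6 genes could be tested, of which Slc35b1, a nucleotide carrier of the ER membrane, rose 2.77-fold and the others were not called. This count of 1 in 3 called higher is near the 31% of all items. The probe for Ugdh, the enzyme that makes UDP-glucuronic acid, was detected on no array.

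For glutathione synthesis and recycling, 4 of 13 tested genes were called higher and 7 lower, beside 31% and 31.4% of all items. Chac1, which degrades glutathione in the cytosol, rose 6.95-fold, with log2 intensities of 7.06, 7.02 and 8.19 in vehicle and 10.36, 10.85 and 9.45 in tunicamycin arrays. Its vehicle replicate 3 was the highest of its group and tunicamycin replicate 3 the lowest, and the groups did not overlap. Slc7a11, the cystine importer, was not well above background in vehicle samples and was at least 3.13-fold higher after tunicamycin (limma adjusted p = 1.106e-05). Gss, the glutathione synthetase, rose 2.08-fold, while Gclm, the modifier subunit of the rate-limiting ligase, fell 1.69-fold. Anpep and Nat8, a peptidase and the acetylating enzyme of the later mercapturic acid route, fell 3.94-fold and 2.60-fold. Among 6 tested glutathione transferase relatives outside the chosen families, 2 were called higher and 2 lower, near the shares of all items (31% and 31.4%). Of those called, Gstz1, an enzyme of tyrosine breakdown, fell 1.61-fold, and Eef1g, a translation factor subunit with a GST fold, rose 1.81-fold. Clic1, a chloride channel protein with a GST fold, fell 1.30-fold.

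Genes listed for the transport and removal of conjugates were mostly called lower. Of 9 tested transporters 8 were called lower and 1 higher. Slc10a1, the bile acid importer, was not well above background after tunicamycin and was at least 1.81-fold lower. The fitted values gave the list a median of -1.18 on the log2 scale, and with Slc10a1 at its bound the median was -0.99. The uptake carriers Slco2b1 and Slco1b2 fell 5.03-fold and 4.05-fold, and Abcc2, which exports glucuronides into bile, fell 1.50-fold. Abcc4, an exporter to blood, rose 4.43-fold, at 5.61, 5.23 and 5.51 in vehicle and 7.72, 6.99 and 8.09 in tunicamycin arrays. Its vehicle values were close to the floor set by the offset. The removal list held glucuronidase, sulfatase, sulfatase-modifying, carboxylesterase and epoxide hydrolase genes, not all of which act on conjugates. Of its 7 tested genes 5 were called lower and 0 higher. Among the falls were Ces2e, a carboxylesterase, by 5.29-fold, Gusb, the lysosomal glucuronidase, by 3.23-fold and Ephx1, the microsomal epoxide hydrolase, by 2.22-fold. Other conjugating enzymes, which add methyl, acetyl or amino acid groups, were called lower for 11 of 14 tested genes and higher for 1, Nnmt, by 1.38-fold. The most marked falls in this list were those of Keg1 at 177-fold, Gm4952 at 32.8-fold and Acsm3, an acyl-CoA synthetase, at 6.41-fold. Tpmt, the thiopurine methyltransferase, fell 3.34-fold and Inmt, which methylates indoleamines, fell 3.50-fold. The share called lower in these lists can be read against the 31.4% of all items.

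Factors known to control these enzymes were called lower for 7 of 13 tested genes and higher for 2, beside 31.4% and 31% of all items. The most marked falls were those of Nr1i3, the receptor CAR, at 8.73-fold and of Cebpa, a hepatocyte transcription factor, at 5.14-fold. Nr1i2, the receptor PXR, fell 2.07-fold and its partner Rxra 2.03-fold, and Hnf4a was also called lower. Those called higher were Nfe2l1, by 1.95-fold, and Nfe2l2, which encodes NRF2, by 1.45-fold (log2 fold change 0.53 ± 0.11, limma adjusted p = 0.001576). Keap1, its inhibitor, was not called, at 0.13 ± 0.13 (limma adjusted p = 0.3893). Of NRF2 targets outside the transferases, 4 of 12 tested genes were called higher and 5 lower, beside 31% and 31.4% of all items. This list shares Slc7a11, Gclm, Gclc, Ugdh and Abcc4 with lists above. Srxn1, the sulfiredoxin gene, read 8.75, 8.76 and 8.87 in vehicle and 12.01, 11.51 and 12.10 in tunicamycin arrays, a rise of 8.46-fold. Nqo1, a quinone reductase often used as an NRF2 marker, read 5.80, 5.43 and 5.56 against 5.07, 5.05 and 5.23, a fall of 1.39-fold (log2 fold change -0.48 ± 0.12, limma adjusted p = 0.006259). The Nqo1 values were close to the floor set by the offset, so the size of this fall is uncertain. Taldo1, of the pentose phosphate pathway, fell 1.81-fold.

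**Figure D4:**
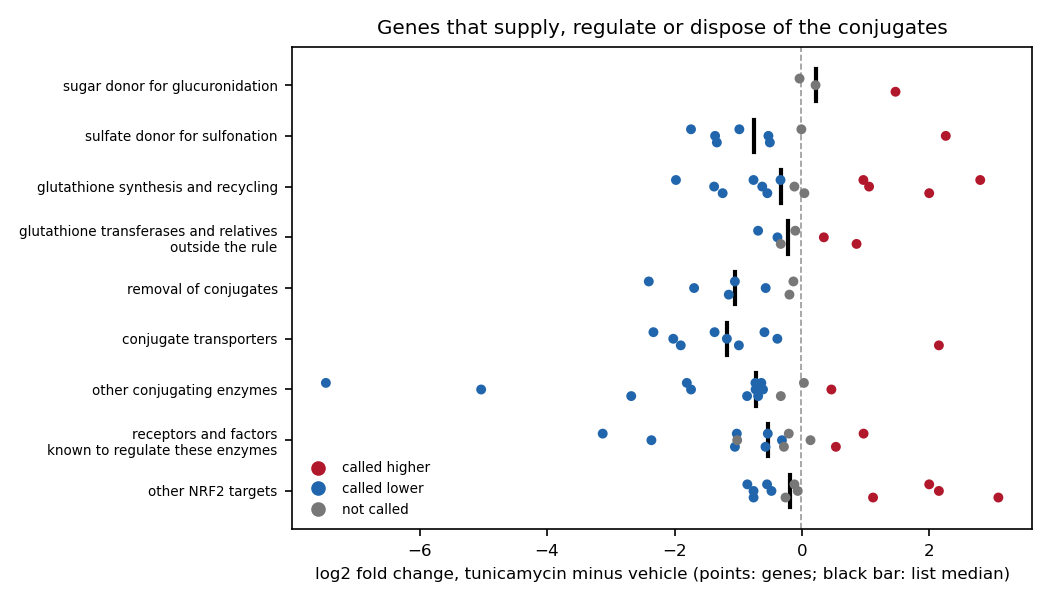
Log2 fold change (x axis, tunicamycin minus vehicle) of each tested gene of 9 lists, 1 row per list, coloured by call, with the list's median as a black bar and fitted values shown also for the genes given above as "at least". Papss1 and Papss2 lie at opposite ends of the sulfate row, and only Abcc4 lies to the right of 0 among the transporters.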

How the data were processed

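Mouse liver RNA was measured in 6 samples, 3 per group, on a bead array with 45281 probes. The deposited table gives mean bead intensity per probe and array, per the file headers, and the values show no background subtraction and no normalization. Next to each signal column the authors deposited a detection p-value per probe, in 6 columns of 1 name, and each such column ranked most closely with the array it was matched to. A second deposited table of intensity is, from the values, linear, background-subtracted and quantile-normalized (median 4.2 and lowest value -12.1 in each column), and served only as an alternative. Scanner and software: not given in the sources used here.

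Here limma 3.58.1 (R 4.3.3) removed background by normexp, with the background estimated through the detection p-values and 16 added as offset, and the arrays were then quantile-normalized and log2 transformed. Probe names came from the platform annotation (34885 probes with 1 gene symbol, 18 with several, 10378 with none), and all 60 members matched the GRCm38.p6 gene table by Entrez ID. The probe with the highest mean raw signal stood for each gene, and unnamed probes were kept as items. Testing took the items whose detection p fell under 0.05 in 3 or more of 6 arrays, which gave 11674 items, 9328 of them named genes. Groups were compared by lmFit and eBayes, two-sided, with Benjamini-Hochberg adjustment over all items. Errors are standard errors of log2 fold changes with 3 arrays per group, and this number limits the precision. The fit was tested on simulated data. For a gene undetected on every array of a group the fold is given as "at least". Start windows were compared by global alignment in Biopython 1.88.

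The members and lists were chosen with earlier results of these data known. Genes described follow a rule: per family the 3 largest separate called changes in each direction and the gene with the brightest probe, and per list the 3 largest called changes. Other genes named were chosen after their values were seen. The labels do not say whether the same replicate number in both groups marks a pair, and the main fit did not pair the arrays.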

Additional observations from a re-analysis of the deposited data

How the results depend on the processing

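Results were recomputed under 15 alternatives: no background correction, an offset of 50, 1 median per array in place of quantile normalization, the second deposited table, no filter or a stricter filter (0.01) on detection, the mean of all detected probes of a gene, eBayes with trend and robust, the replicate number as a block, and leaving out each array. None of the 32 called members changed sign under any of them. Of the 22 genes called lower, 20 kept the call under all 15, and the exceptions, Ugt1a9 (log2 fold change -0.46, adjusted p 0.05092 by limma) and Ugt2b35, lost it with 1 median per array. Of the 10 called higher, 5 kept it (Gstm2, Gstm6, Gsto1, Gstp3 and Ugt1a1), and Gsta1, Gstm1, Gstm4, Ugt1a6a and Ugt1a6b did not. Leaving out 1 array in turn gave 6 to 10 members called higher, 22 to 24 called lower, and 6462 to 6991 items called in all. The lowest count of 6 came without vehicle replicate 2, when Gstm1, Gstm4, Ugt1a6a and Ugt1a6b lost their calls. Gsta1 lost its call without the detection filter (adjusted p 0.1186), with trend and robust (0.1131) and for the mean of its probes (log2 fold change 1.33, adjusted p 0.05832), all by limma. The log2 fold change of Ugt1a10, which was not called, was -0.11 under the scaling to 1 median, and between -0.003 (vehicle replicate 2 left out) and 0.11 when arrays were left out in turn. Same-numbered arrays deviated together at correlations of 0.1168, 0.0539 and 0.0034, and 3 of 6 arrays correlated best with their own number, so the replicate block is given only here. It called 10 members higher and 25 lower, adding Gstm5, Sult1d1 and Ugt1a2, and 7323 items against 7294. The cause of these changes was not tested. Signal over background limits the 20 genes that could not be tested, 18 of them detected on no array.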
